A study of Rattus norvegicus with 6 samples.

Results

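Peripheral nerve reaches the thyroid with its blood vessels, and its transcripts were followed here through 8 genes of neurons and of Schwann cells, the glia that wrap peripheral axons: Stmn2, Nefl, Uchl1, Gap43, Pmp22, Mbp, Sox10 and S100b. The genes were taken by their symbols, and all 8 were among the 15388 genes of the count tables. Thyroids came from adult Sprague-Dawley rats that were either non-pregnant (NP) or on day 18 of pregnancy (LP, counted from the vaginal plug as day 1), with 3 RNA-seq samples for each group. No transgene, drug or other treatment distinguished the groups, and the age of the animals is not given beyond adult. The study took thyroids from 3 non-pregnant and 3 day 18 rats, but does not state whether each sample is the gland of 1 animal. The p-values therefore measure the spread between samples, which may be technical.

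A thyroid nerve fibre holds little neuronal mRNA, because most messages are made in neuron cell bodies, and those of the sympathetic supply lie in ganglia of the neck. The nuclei of Schwann cells instead lie along the fibre. Among the members, Stmn2, Gap43, Nefl and Uchl1 are proteins of axons, and Uchl1 is also made by endocrine cells such as the calcitonin-secreting C cells of the thyroid. Sox10 is the transcription factor that sets Schwann cell identity, S100b is a calcium-binding protein of glia that fat cells make too, and Mbp and Pmp22 are proteins of compact myelin, of which Pmp22 is also made by fibroblasts.

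The samples held between 2752144 and 3449857 counted reads, and 3 reads, taken as the smallest level that a library can show, stood for 0.89 to 1.07 CPM (reads relative to the library total, corrected by TMM factors that level the libraries on genes that change little). Replicates 2 and 3 of NP differed by no more than counting noise (chi-square per gene 1.02, p = 0.111 from a chi-square test of their reads), as did those of LP (0.995, p = 0.667), whereas replicate 1 stood apart from them in both groups (3.70 to 4.11). Each mean ± SD below takes replicates 2 and 3 together as a single value beside replicate 1 (n = 2), and the main results are also given with the reads of this pair summed. Thyroid follicular markers made up 23.6% to 25.3% of the reads of each sample, led by Tg, and C cell and parathyroid markers were present as well.

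In LP, 1 of the 8 genes was lower by more than 2-fold and 1 was modestly higher, while the best counted neuronal member differed little. Stmn2 fell to 0.233 of its NP level and Mbp rose 1.46-fold. Of the 8 genes, 5 had enough reads for edgeR's default filter. Of these 5, 1 was lower past both criteria of the study (more than 2-fold, with the adjusted p-value under 0.05), where 0.537% of the 11738 tested genes were, and 0 were higher past both, where 4.9% of all tested genes were. Among these 5, the count of higher members past both criteria was also 0 at an unadjusted p-value below 0.05 and with DESeq2. By the adjusted p-value alone, 1 member was higher and 1 lower, beside 15.3% and 11.7% of all tested genes. The summed level of the 8 genes, most of it Uchl1, lay between 161 and 188 CPM in NP and between 173 and 190 CPM in LP, and the groups overlapped.

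**Figure D1:**
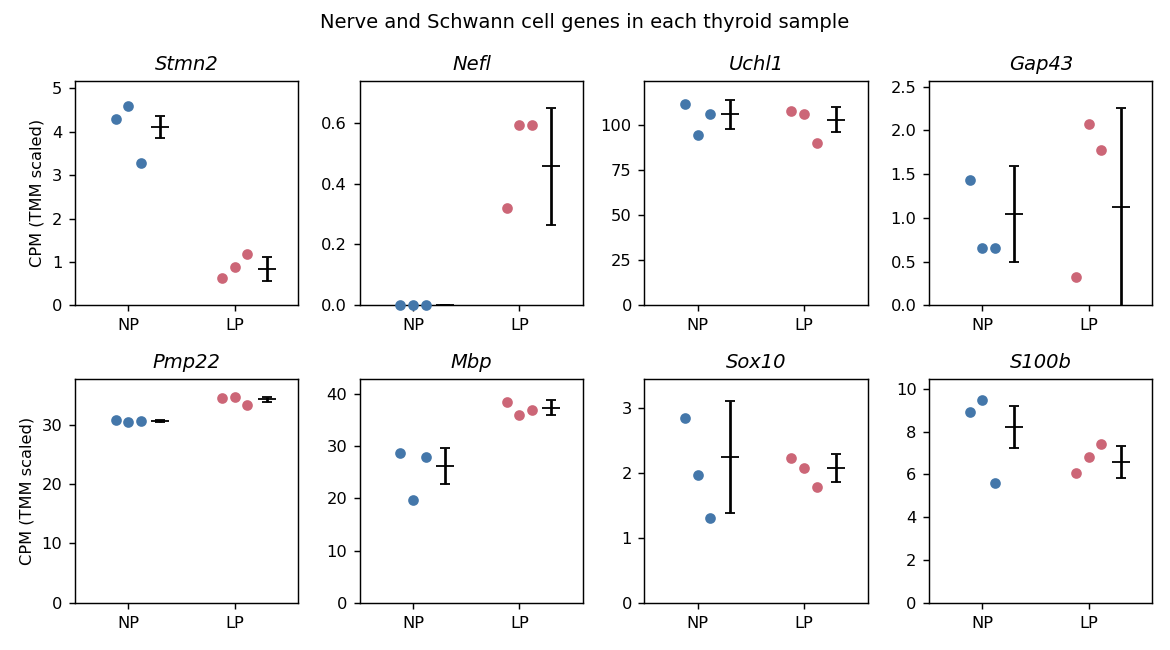
TMM-scaled CPM of the 8 genes in each sample, with 3 NP samples (blue) and 3 LP samples (red) in the order of their replicate numbers, each panel with its own linear axis from 0. Black marks are the mean ± SD with replicates 2 and 3 taken as 1 sample (n = 2), and the lower bar of Gap43 in LP is cut at 0. Stmn2 of every LP sample lies below every NP sample and Mbp above, while Uchl1, Gap43, Sox10 and S100b overlap, and Nefl rests on 0 to 2 reads a sample.

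Stmn2 (stathmin 2, ENSRNOT00000015720), a tubulin-binding protein that keeps microtubules of growing axons dynamic, had 12, 14 and 10 reads in NP against 2, 3 and 4 in LP. All LP samples lay below all NP samples, and LP sat at about the smallest level the depth can show. The mean level was 4.11 ± 0.25 CPM in NP and 0.839 ± 0.28 CPM in LP (SD, n = 2). The log2 fold change was -2.10 (standard error 0.42, 95% interval 0.125-fold to 0.434-fold, edgeR adjusted p = 0.00112). Counting error alone, from 36 reads against 9, gave a ratio of 0.225 with an exact interval of 0.0954 to 0.477. With replicates 2 and 3 summed the log2 fold change was -2.14 (edgeR adjusted p = 0.00583), and with DESeq2 it was -2.15 (adjusted p = 0.0191).

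The stathmin family did not move as a unit. Stmn1, which is made by dividing cells as well as neurons, had 49, 57 and 73 reads in NP against 122, 128 and 111 in LP. It rose by 0.86 on the log2 scale (standard error 0.13, edgeR adjusted p = 8.63e-05), and without NP replicate 3 by 1.01, past the 2-fold criterion. Stmn3, which is largely neuronal, counted 61, 57 and 53 reads in the NP samples against 71, 57 and 67 in LP. Its log2 fold change of 0.04 had a 95% interval of -0.29 to 0.36. Stmn4 had 0 to 2 reads in NP and 1 to 4 in LP, too few to compare. The relatives of the members named here and for neurofilaments and myelin below were chosen after their values were seen.

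Nefl (neurofilament light chain, ENSRNOT00000018599), the core subunit of the filaments that fill large axons, had 0 reads in every NP sample and 1, 2 and 2 in LP. Each library was at or under 3 reads, so no fold is given. The test without the filter gave an unadjusted edgeR p of 0.0307 and an adjusted p of 0.114. The medium chain Nefm was better counted. It had 20, 17 and 18 reads in NP against 6, 6 and 8 in LP, with all LP samples below all NP samples. Its level fell by 1.59 on the log2 scale (standard error 0.32, edgeR adjusted p = 0.00101), and with replicates 2 and 3 summed by 1.62 (edgeR adjusted p = 0.00646). The heavy chain Nefh had the most reads of the filament genes, with 178, 190 and 195 reads in NP against 184, 208 and 196 in LP. Its log2 fold change was -0.09 (95% interval -0.24 to 0.06). Ina and Prph, intermediate filament proteins of neurons, had log2 fold changes of 0.05 (95% interval -0.22 to 0.32) and 0.10 (-0.45 to 0.65). Of these 5 filament genes, 4 passed the filter, and Nefm alone of them was past both criteria, lower in LP as 0.537% of all tested genes were.

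Uchl1 (ENSRNOT00000003248), a ubiquitin hydrolase whose protein is widely used to stain nerve fibres, had 312, 288 and 322 reads in NP against 337, 357 and 303 in LP. The mean level was 106 ± 8.1 CPM in NP and 103 ± 6.8 CPM in LP (SD, n = 2), and the samples of the groups were interleaved. The log2 fold change was -0.04 (standard error 0.079, edgeR adjusted p = 0.779), and its 95% interval, 0.868-fold to 1.09-fold, lay well inside a 2-fold change. In a newer RefSeq annotation than the one counted (GRCr8), Uchl1 overlaps Apbb2, which had 21 to 47 reads a sample, and S100b overlaps Dip2a, which had 78 to 118. The use of strand in the counting is not stated, so reads in such overlaps cannot be told apart. Markers of C cells, which also make Uchl1, summed to between 15000 and 16019 CPM in NP and between 13266 and 14078 CPM in LP over 10 of 10 listed genes, none of them at 0. Without Calca, the most counted, the sums were 6909 to 7441 CPM in NP and 6745 to 7251 CPM in LP and overlapped. Of these 10 genes, 1 was higher (Scg2) and 3 were lower (Calca, Pcsk2 and Scg5) by the adjusted p-value, 10% and 30%, beside the 15.3% and 11.7% given above. With replicates 2 and 3 summed Pcsk2 and Scg5 lost the call (edgeR adjusted p = 0.0838 and 0.058), and Scg2 lost it with DESeq2 (adjusted p = 0.067). The part of C cells in the values of Uchl1 and Stmn2 was not tested.

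Gap43 (ENSRNOT00000002091), a growth cone protein also made by Schwann cells without myelin, had 4, 2 and 2 reads in NP against 1, 7 and 6 in LP. LP replicate 1 was the lowest of the 6 samples and LP replicate 2 the highest, so the groups overlapped. The ratio of LP to NP reads, scaled for depth, was 1.58 with an exact counting interval of 0.617 to 4.34. The test without the filter gave an edgeR adjusted p of 0.598.

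Sox10 (ENSRNOT00000015283) had 8, 6 and 4 reads in NP against 7, 7 and 6 in LP. The reads summed to 18 and 20, a depth-scaled ratio of 1.00 with an exact counting interval of 0.503 to 2.01. S100b (ENSRNOT00000001743) had 25, 29 and 17 reads in NP against 19, 23 and 25 in LP. Its mean level was 8.24 ± 0.98 CPM in NP and 6.59 ± 0.75 CPM in LP (SD, n = 2), a log2 difference of -0.23 (standard error 0.25, 95% interval -0.77 to 0.30, edgeR adjusted p = 0.551). NP replicate 3 was the lowest of the 6 samples in S100b and the groups overlapped. A difference in these glial genes was not detectable at this depth, and the intervals reach to about a 2-fold change for Sox10.

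Myelin is the insulating sheath made of stacked Schwann cell membrane, which speeds the conduction of impulses. Mbp (myelin basic protein, ENSRNOT00000089879), which seals the inner faces of the membranes, had 80, 60 and 85 reads in NP against 120, 121 and 124 in LP. Every LP sample lay above every NP sample, with NP replicate 2 the lowest. The mean level was 26.2 ± 3.4 CPM in NP and 37.3 ± 1.4 CPM in LP (SD, n = 2). The log2 fold change was 0.55 (standard error 0.13, 95% interval 0.27 to 0.82, edgeR adjusted p = 0.00411). It was 0.54 with replicates 2 and 3 summed (edgeR adjusted p = 0.00898) and 0.55 with DESeq2 (adjusted p = 0.0265). The Mbp gene also gives Golli transcripts from an upstream start, which are made in immune cells too, and the table holds 1 value for the gene, so its starts cannot be told apart.

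Pmp22 (peripheral myelin protein 22, ENSRNOT00000081415), a membrane protein whose dose is critical for myelin, had 86, 93 and 93 reads in NP against 108, 117 and 112 in LP. After scaling, the LP samples lay between 33.2 and 34.7 CPM and the NP samples between 30.5 and 30.7 CPM, without overlap. The difference was small, however, with a log2 fold change of 0.16 (standard error 0.10, 95% interval -0.06 to 0.37, edgeR adjusted p = 0.337), and counting error of about 100 reads allows more spread than these samples showed. With library totals alone in place of TMM the log2 fold change was 0.087.

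Other genes of myelin were read beside Mbp and Pmp22. Cnp, an enzyme of myelin and of other cells, had 83, 96 and 95 reads in NP against 149, 131 and 143 in LP and rose by 0.48 on the log2 scale (edgeR adjusted p = 0.00254). Prx, the scaffold protein of thick myelin, had a log2 fold change of 0.15 (95% interval -0.26 to 0.56), and Mag had 0 to 2 reads in every sample. Mbp and Cnp were thus higher in LP by the adjusted p-value and under the 2-fold criterion, with every LP sample above every NP sample in both. Ugt8 and Cadm4, other Schwann cell genes linked to myelin, fell. Ugt8, an enzyme that makes the galactolipids of myelin, had 135, 98 and 128 reads in NP against 69, 92 and 81 in LP and fell by 0.73 on the log2 scale (edgeR adjusted p = 0.000846). Cadm4, an adhesion protein between axon and Schwann cell, had 123, 144 and 141 reads in NP against 104, 105 and 103 in LP and fell by 0.54 (edgeR adjusted p = 0.000357). Of the Schwann cell genes under the filter, Egr2, Ncmap and Drp2 had every LP sample above every NP sample, and the rest overlapped. How often genes with so few reads separate in this way was not counted over all genes, so no result on Schwann cell genes is drawn from it. Drp2 had 4, 2 and 1 reads in NP against 7, 13 and 7 in LP. Egr2 had 3, 3 and 0 against 11, 5 and 7, and Ncmap 1, 0 and 0 against 3, 4 and 2. The fit without the filter gave edgeR adjusted p-values of 0.0338, 0.0749 and 0.103, respectively. Ugt8, Cadm4 and these genes were named after their values were seen.

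**Figure D2:**
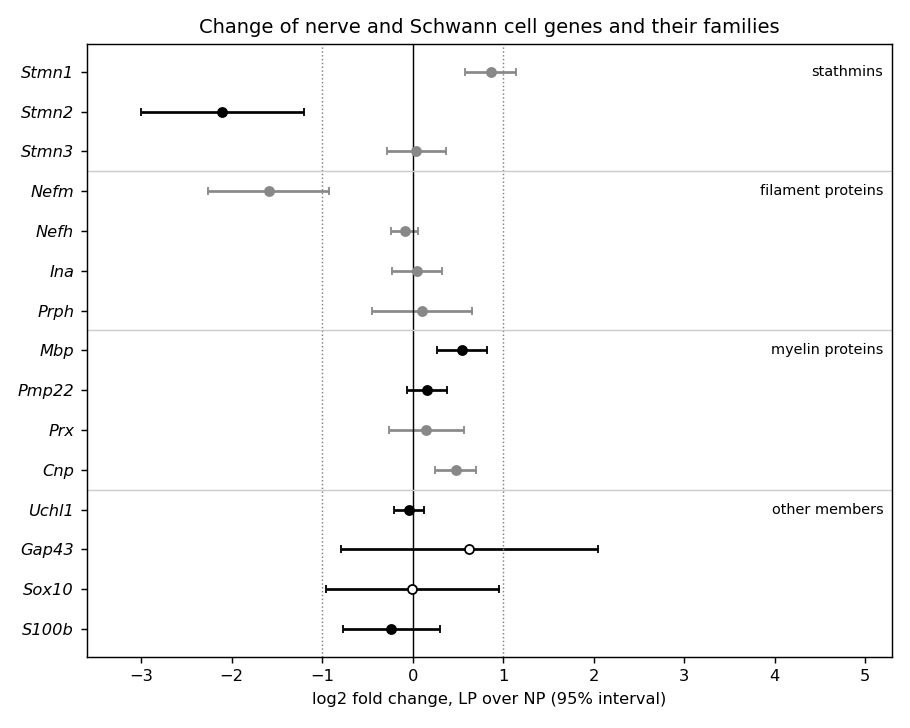
Log2 fold change of LP over NP with its 95% interval from edgeR, for the members (black) and their relatives (grey), grouped into stathmins, filament proteins, myelin proteins and other members. Open points (Gap43 and Sox10) are from the fit without the filter on low counts, dotted lines mark 2-fold changes, and Nefl, Stmn4 and Mag are left out because their reads were too few. Stmn2, at -2.10, and Nefm, at -1.59, lie left of the lower line.

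The starts of the myelin members are shown for reference, since Sox10 is a member and SOX proteins bind the short cores ACAAAG and ACAATG. RefSeq windows of GRCr8, from 250 bases before to 50 bases after a start, were at hand for 4 of the 8 members (Uchl1, Pmp22, Mbp and S100b). Either core, read on both strands, was present in 29.1% of all 33469 windows of this length, and 3 or more matches in 0.977%. The upstream start of Mbp had 0 matches and its downstream start 3, whereas Pmp22, Uchl1 and S100b had 0. Capitals mark the matches, all windows below are on the + strand, and no binding was measured in these samples. The windows are those of Mbp at chr18:78130402-78130701 and chr18:78209995-78210294 and of Pmp22 at chr10:48294682-48294981.
Mbp upstream start: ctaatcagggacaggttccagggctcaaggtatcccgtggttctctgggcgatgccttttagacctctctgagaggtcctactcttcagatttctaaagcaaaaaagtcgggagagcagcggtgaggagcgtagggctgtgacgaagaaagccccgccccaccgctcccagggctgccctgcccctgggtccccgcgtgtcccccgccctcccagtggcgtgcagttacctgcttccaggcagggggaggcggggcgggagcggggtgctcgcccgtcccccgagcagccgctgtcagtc
Mbp downstream start: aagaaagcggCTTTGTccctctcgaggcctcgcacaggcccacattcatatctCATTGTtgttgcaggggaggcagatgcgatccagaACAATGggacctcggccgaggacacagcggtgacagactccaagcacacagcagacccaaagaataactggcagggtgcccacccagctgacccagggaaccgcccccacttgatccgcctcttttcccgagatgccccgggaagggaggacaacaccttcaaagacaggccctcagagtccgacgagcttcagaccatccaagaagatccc
Pmp22 start: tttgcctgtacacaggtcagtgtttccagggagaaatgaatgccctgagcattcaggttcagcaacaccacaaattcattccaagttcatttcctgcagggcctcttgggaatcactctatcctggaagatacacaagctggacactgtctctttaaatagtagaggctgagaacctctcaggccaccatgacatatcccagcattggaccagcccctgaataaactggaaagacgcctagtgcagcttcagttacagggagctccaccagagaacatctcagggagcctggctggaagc

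Wider lists of nerve genes were then read beside the members, 114 genes in 5 lists, of which 92 were in the tables and 58 passed the filter. Over these 58 genes the median log2 fold change was 0.07, beside -0.01 over all tested genes. By the adjusted p-value 12 of the 58 were higher and 10 lower, 20.7% and 17.2%, beside 15.3% and 11.7% of all tested genes. Past both criteria 3 were higher and 1 lower, 5.17% and 1.72%, beside 4.9% and 0.537%. Genes moved in both directions within 4 of the 5 lists.

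Of 22 tested genes of neurons and axons, 4 were higher and 3 lower by the adjusted p-value, 18.2% and 13.6%, which is near the 15.3% and 11.7% of all tested genes. The median log2 fold change was 0.06. Nefm passed both criteria, as given above. Map1b, a microtubule protein of axons, had the most reads of the list, 1334, 1408 and 1332 in NP and 993, 1025 and 1108 in LP, and fell by 0.53 on the log2 scale (edgeR adjusted p = 5.81e-07). Ank2, an anchor of membrane proteins, rose by 0.50 (edgeR adjusted p = 4.55e-05). Mapt, the tau protein, had 83, 106 and 94 reads in NP against 192, 198 and 214 in LP. It rose by 0.94 on the log2 scale (edgeR adjusted p = 4.23e-07), or by 1.01 without NP replicate 2. Rtn1 had 164, 153 and 154 reads in NP against 103, 135 and 132 in LP and fell by 0.50 (edgeR adjusted p = 0.00121). Mapt and Rtn1 were named after their values were seen.

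Among 10 tested genes of transmitters and synaptic vesicles, Nos1, the neuronal nitric oxide synthase, which skeletal muscle fibres make too, had 2, 2 and 6 reads in NP against 78, 78 and 64 in LP. Its log2 fold change was 4.26 (standard error 0.31, edgeR adjusted p = 7.5e-09), and without NP replicate 3, which held 6 of the 10 NP reads, it was 4.94. Vamp2, a vesicle fusion protein, fell by 0.30 (edgeR adjusted p = 0.0015), and Cplx2 had a log2 fold change of -0.03 (95% interval -0.20 to 0.14). Vamp1 had a log2 fold change of 0.25 (edgeR adjusted p = 0.103), with 0.0497 under the replicate block and 0.0403 without LP replicate 1. Dbh, the noradrenaline enzyme of sympathetic neurons, had 0 reads in 5 samples and 2 in LP replicate 3, and Vip had 0 to 2 reads a sample.

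Of 11 tested Schwann cell genes other than the members, 2 were higher (Cnp and Gjb1) and 3 lower (Mal, Ugt8 and Cadm4) by the adjusted p-value. These were 18.2% and 27.3%, beside 15.3% and 11.7% of all tested genes, and the median log2 fold change was 0.10. The most counted were Gjb1, Mal and Erbb3, which epithelial cells make as well. Gjb1, a gap junction protein, rose by 0.35 on the log2 scale (edgeR adjusted p = 3.18e-05) and Mal, a membrane protein of myelin, fell by 0.41 (edgeR adjusted p = 7.78e-05). Erbb3, the receptor through which axonal neuregulin reaches Schwann cells, had a log2 fold change of 0.15 (95% interval -0.02 to 0.31).

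Of 10 tested nerve growth factors and receptors, 1 was higher (Gfra2) and 3 were lower (Nrp1, Ntrk2 and Gfra1) by the adjusted p-value, 10% and 30%, beside 15.3% and 11.7% of all tested genes. The call of Gfra1 was lost with DESeq2 (adjusted p = 0.183), which left 2 lower. Past both criteria there were 0 in either direction, and likewise 0 at an unadjusted p-value below 0.05 and with DESeq2. Nrp1, a receptor of semaphorin and VEGF on axons and vessels, had 478, 536 and 447 reads in NP against 321, 333 and 335 in LP and fell by 0.71 on the log2 scale (edgeR adjusted p = 3.03e-07). Sort1, a sorting receptor that also takes up neurotrophin precursors, had a log2 fold change of 0.06 (95% interval -0.05 to 0.16), and Ret, the receptor kinase of GDNF ligands that C cells make too, 0.12 (-0.03 to 0.28).

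Of 5 tested genes of the junction of motor nerve and muscle, 4 were higher by the adjusted p-value, beside 15.3% of all tested genes, and 3 with DESeq2, while 0 were lower (also 0 lower at an unadjusted p-value below 0.05 and with DESeq2). Ache, the enzyme that breaks down acetylcholine, had 4, 15 and 10 reads in NP against 114, 127 and 97 in LP, and rose by 3.38 on the log2 scale (standard error 0.24, edgeR adjusted p = 7e-09). Dok7, which activates the muscle kinase Musk, had 5, 4 and 5 reads in NP against 30, 40 and 40 in LP, and rose by 2.79 on the log2 scale (standard error 0.30, edgeR adjusted p = 1.30e-06). Agrn, the nerve-derived organizer of the junction, rose by 0.42 (edgeR adjusted p = 0.000155). Lrp4, the receptor of agrin, had a log2 fold change of 0.20 (edgeR adjusted p = 0.0248), which was 0.178 with DESeq2, 0.14 with library totals alone, 0.0742 with replicates 2 and 3 summed, and 0.126, 0.0536 and 0.104 without NP replicate 2, LP replicate 1 and LP replicate 2. Rapsn had a log2 fold change of 0.15 (95% interval -0.32 to 0.63).

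**Figure D3:**
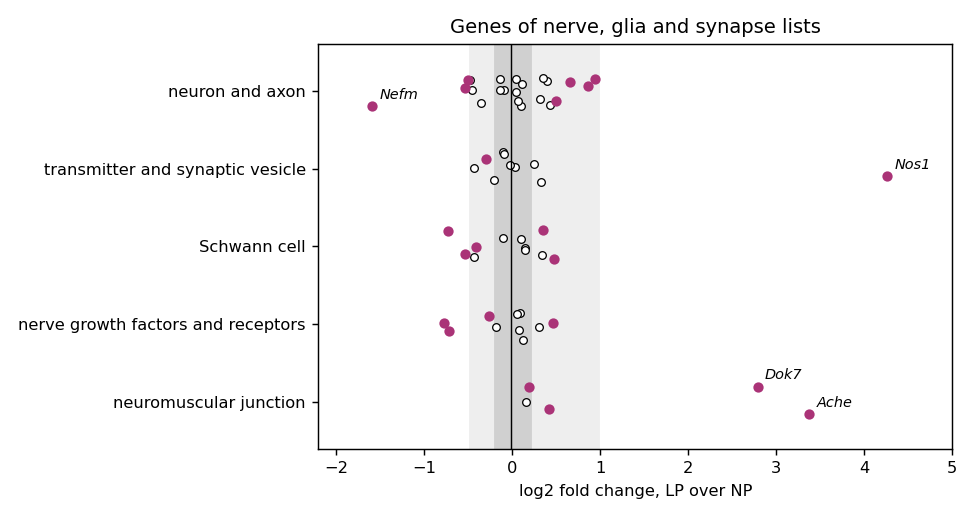
Log2 fold change of LP over NP for the tested genes of the 5 nerve lists, 1 point a gene, filled where the edgeR adjusted p-value is below 0.05. The bands hold the middle 50% and 90% of all 11738 tested genes, and the line is their median of -0.01. Nefm lies at -1.59, and Nos1, Ache and Dok7 lie between 2.79 and 4.26, while most other genes of the lists lie inside or near the outer band.

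Skeletal muscle markers moved with the groups and are given beside Mbp and the junction genes. The 11 of 15 listed muscle genes in the tables summed to between 26.4 and 76.8 CPM in NP and between 5393 and 5685 CPM in LP, with Tnnc2 the most counted, and 9 of the 10 tested were past both criteria, all higher in LP. Myh1 and Mylpf were at 0 in every NP sample, and Acta1 was at 0 in replicate 1 of both groups. Adipocyte markers, of interest for S100b, summed to between 157 and 176 CPM in NP and between 230 and 260 CPM in LP over 8 of 9 listed genes. Of 6 tested, 1, Lpl, was higher past both criteria, 16.7% beside 4.9% of all tested genes. Without Lpl they summed to between 114 and 134 CPM in NP and between 117 and 147 CPM in LP, and the groups overlapped. Ucp1, under the filter, went the other way, with 12, 9 and 9 reads in NP against 2, 4 and 4 in LP. Its log2 fold change was -1.70 in the fit without the filter (edgeR adjusted p = 0.0116). Fibroblast markers, of interest for Pmp22, summed to 1246, 2182 and 2142 CPM in NP replicates 1 to 3. In LP replicates 1 to 3 the sums were 1546, 2496 and 2418 CPM. The groups overlapped, with LP above NP at each replicate number. By the adjusted p-value, Fbln1 was higher (log2 fold change 0.94) and Dcn lower (-0.20). Each was 14.3% of the 7 tested, beside 15.3% and 11.7% of all tested genes. Dcn lost the call with replicates 2 and 3 summed (edgeR adjusted p = 0.138). Col1a1 and Col3a1 had no call (edgeR adjusted p = 0.43 and 0.357) but were higher with the replicate block (2.42e-38 and 3.28e-13). Parathyroid markers summed to between 4458 and 4830 CPM in NP and between 3717 and 4029 CPM in LP, led by Pth. Pth alone of the 3 was lower, with a log2 fold change of -0.30 (edgeR adjusted p = 3.19e-06). Gcm2 and Casr had log2 fold changes of 0.18 and 0.10 (edgeR adjusted p = 0.084 and 0.288). No adipocyte, fibroblast or parathyroid marker was at 0 throughout a group. The part of these tissues in the nerve and Schwann cell values was not tested, and in bulk tissue fewer cells of a type cannot be told apart from less RNA per cell.

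**Figure D4:**
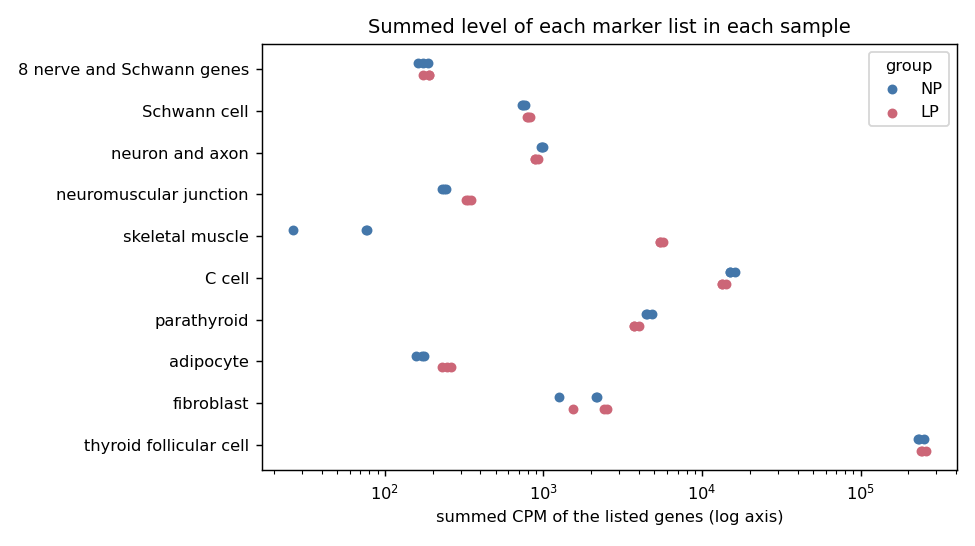
Summed TMM-scaled CPM of the listed genes of each kind in each sample, on a log axis, with NP samples in blue and LP samples in red. The 8 nerve and Schwann genes overlap between 161 and 190 CPM, skeletal muscle lies at 26.4 to 76.8 CPM in NP and at 5393 to 5685 CPM in LP, and the other lists differ much less.

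The genes with the most similar pattern over the 6 samples, which need not have a like level, were looked up for each tested member. Similarity was Pearson's r of log2(CPM + 1) among genes with a mean of at least 10 reads. For Stmn2 the nearest were Atf6b (r = 0.998), Lats1 (0.996) and Tek (0.994), whose own log2 fold changes were between -0.49 and -0.30, much smaller than that of Stmn2. For Mbp they were Jag1 (0.994), Nrg2 (0.991) and Cops7a (0.990), with log2 fold changes between 0.15 and 0.64. Pmp22 was nearest to Sqstm1 (0.996), Map7d1 (0.996) and A930018M24Rik (0.996). Their log2 fold changes were 0.19, 0.50 and 7.33, beside 0.16 for Pmp22. Uchl1 was nearest to Zdhhc3 (0.992), Mrpl39 (0.991) and Trmt2a (0.989), with log2 fold changes of -0.04, -0.06 and -0.05. S100b was nearest to Smad5 (0.986), Cwc15 (0.981) and Naa38 (0.975), with log2 fold changes of -0.20, -0.15 and -0.12. Each was the best of 11636 or more genes compared over 6 samples that share their groups and of which replicates 2 and 3 are nearly alike, so the values are a description of these libraries.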

How the data were processed

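Per the labels, the authors aligned reads with TopHat 1.4.0 to rn5, a rat genome build, and counted them on Ensembl gene models with HTSeq, and they deposited whole read counts per gene with no normalization. How 1 transcript identifier was chosen per gene is not given in the sources used here. The 8 genes, the lists beside them and the alternatives were chosen with earlier results of these data known.

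LP was compared with NP in R 4.3.3 by edgeR 4.0.16 (glmQLFit and glmQLFTest, TMM scaling, filterByExpr at its defaults), and p-values were adjusted by Benjamini-Hochberg over all 11738 genes kept. Members with fewer reads were read from a fit of all genes. A standard error is the absolute log2 fold change over the root of the F statistic, and 95% intervals use it with the t distribution of the fit. Intervals of read ratios are exact binomial (Clopper-Pearson) and cover counting error only, as does the limit of 3 reads per library. Some genes of the lists are not reported here and were left out of the list counts and sums. All 8 members were named. From each nerve list were named the genes past both criteria and the 3 most counted others. Further genes of the lists were named after their values were seen. For each member past the filter, 3 similar genes were looked up.

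Also tried were a block for the replicate number, each sample left out in turn, DESeq2 1.42.0, other scalings, no filter, a mean of at least 50 reads and replicates 2 and 3 summed. The summed setting with the block was added after seeing the data. The labels number the samples of both groups 1 to 3. Samples with the same number deviated together from their group means (r = 0.483, 0.216 and 0.183 across genes). The main comparison did not treat the numbers as pairs, and only the alternatives with the block did. The code was tested on simulated counts.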

Additional observations from a re-analysis of the deposited data

How the results depend on the processing

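The calls of Stmn2 and Mbp had the same direction and side of the threshold under every alternative in which the gene was tested. The log2 fold change of Stmn2 ranged from -2.34 to -1.93 over 14 alternatives (adjusted p from 0.000284 to 0.0191) and that of Mbp from 0.38 to 0.63 over 15 (adjusted p from 4.76e-05 to 0.0285). When genes had to average 50 reads, Stmn2 was no longer tested, so that 0 members were lower by either rule, and of the 5 nerve lists 1 gene was higher and 0 lower past both criteria. With each sample left out in turn, 3 to 5 genes of the lists were higher past both criteria, the 5 without NP replicate 2, where 3 were in the main comparison. With the replicate number as a block (replicate block), Stmn2 was at -2.10 (adjusted p = 0.000284), and besides Vamp1 the block changed the call of Ncam1 (adjusted p = 0.0397, against 0.0723 without it) and of no other gene of the nerve lists. With the block on replicates 2 and 3 summed, neither Vamp1 nor Ncam1 had the call. The variation between samples that edgeR estimated was 0.0131 with the block and 0.0645 without it, so its p-values rest largely on counting noise. Kif5a, counted among the higher genes of neurons (log2 fold change 0.66), lost its call with DESeq2 (adjusted p = 0.14) and without NP replicate 1 (0.056), NP replicate 3 (0.0969) or LP replicate 2 (0.107). Without the filter, 5 genes of the lists were higher past both criteria, Drp2 and Musk among them. Some genes past the filter gained or lost a call in at least 1 alternative. Of those given with a fold change or call in the report, these were Lrp4, Gfra1, Vamp1, Ncam1, Scg2, Pcsk2, Scg5, Gcm2, Kif5a, Dcn, Col1a1 and Col3a1. Stmn1 and Mapt crossed the 2-fold criterion. For the least counted members (Nefl, Gap43, Sox10 and Stmn2) depth limits the size of any difference to the counting intervals given.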
